A study of Mus musculus with 9 samples.

Results

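The ribosomal protein genes of mouse embryonic stem cells are described here in Gzf1-knockout and wild-type cultures. Gzf1 encodes a zinc finger protein. Genes were taken by symbol: every name of the Rpl or Rps form with a subunit number, plus Rplp0, Rplp1, Rplp2 and Rpsa, with pseudogenes, Rpl10l, Rps27l and the Rps6k kinases left out. This gave 77 of 30232 gene rows, of which 46 encode proteins of the 60S subunit and 31 proteins of the 40S subunit. Of the 77, 7 sit in rows that merge several overlapping symbols. Fau, which carries eS30, is not matched by this naming rule. All 77 passed the filter on low counts, and the smallest count of any of them in any library was 5.

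The 9 libraries fall into 4 groups. Knockout replicates 1 and 2 were RGM cells of run2, and their wild-type counterparts were RGM replicates 1 and 2 of the same run. Knockout replicates 3, 4 and 5 were V6.5 cells of run1, set against wild-type replicate 3 (V6.5) and wild-type replicate 4 (a Cas9-GFP line), also of run1. All cultures grew on irradiated fibroblast feeders in serum and LIF, and feeders were depleted before harvest. The labels do not say how the knockout was made, or whether libraries came from separate clones or cultures, so a p-value below covers the spread among these libraries alone. Cell line and run coincide apart from the Cas9-GFP library and cannot be told apart. The assay, MARS-seq2.0, counts the 3′ ends of polyadenylated transcripts, and values below are CPM, counts scaled to library size. Library totals ranged from 2568489 to 3704162 counts in run2 and from 4872127 to 7072697 in run1.

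Ribosomal proteins assemble with ribosomal RNA into the small (40S) and large (60S) subunits, and a growing cell must make nearly all of them in matched amounts. Their mRNAs are among the most abundant in dividing cells. Many start with a C followed by a run of pyrimidines, the 5′ terminal oligopyrimidine (TOP) motif, through which mTORC1 and LARP1 control their translation. Mammalian genomes also hold many processed pseudogenes copied from these mRNAs.

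The start sites show this feature of the family. In the RefSeq promoter windows of build GRCm38.p6, 57 of the 77 symbols matched an entry, and 13 of these (22.8%) had a C at the annotated start followed by at least 4 C or T letters on the gene's strand. The same was true of 2.67% of 17492 protein-coding genes. The lines below give the 15 bases before the annotated start and the 15 from it onward, for genes that recur in the results. Capitals mark the run from the start base, and the last 2 sequences have none.
Rps6 (chr4:86857353-86857382, minus strand): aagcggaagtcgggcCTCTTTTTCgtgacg
Rpl28 (chr7:4792950-4792979, plus strand): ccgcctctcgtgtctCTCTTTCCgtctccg
Rpl35 (chr2:39005117-39005146, minus strand): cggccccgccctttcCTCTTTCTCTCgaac
Rplp2 (chr7:141447636-141447665, plus strand): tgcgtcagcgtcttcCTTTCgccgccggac
Rps2 (chr17:24720048-24720077, plus strand): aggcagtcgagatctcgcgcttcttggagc
Rplp0 (chr5:115559452-115559481, plus strand): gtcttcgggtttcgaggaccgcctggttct
A match describes these letters at an annotated start only.

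Several facts about the libraries bear on what follows. Gzf1 stood at 5.45, 14.2, 1.66, 9.40 and 5.25 CPM in knockout replicates 1 to 5, against 28.6, 30.0, 8.11 and 18.7 CPM in wild-type replicates 1 to 4. The groups overlapped, because wild-type replicate 3 lay below 2 knockout libraries, and a 3′ tag outside the edited stretch need not report the edit. The log2 fold change of Gzf1 over all libraries was -1.45 (SE 0.42). Its adjusted p was 0.9998 in edgeR and 0.339 in DESeq2, past the threshold in neither. Within RGM and within run1 Gzf1 was not called either. A gene that is not called below may thus still differ between the genotypes. Each of 10 embryonic stem cell markers was at 25.3 CPM or more in every library. Of 24 fibroblast markers, 23 had counts in every library, and Lum was at 0 in 1. Their summed level was 5443 and 8110 CPM in RGM knockout cells and 6891 and 6184 CPM in RGM wild-type cells. In run1 the sum was 3284 to 4424 CPM in knockout cells, with 3786 and 3163 CPM in wild-type cells. In bulk RNA, fewer cells of a type and less RNA per cell cannot be told apart. One pseudogene row, Rps19-ps3, chosen after its values were seen, split libraries of the same label. It was at 7.05 CPM in V6.5 knockout replicate 3, but at 77.7 and 147 CPM in V6.5 knockout replicates 4 and 5. Wild-type replicate 3, also V6.5, held 7.42 CPM, and the Cas9-GFP library held 116 CPM. The RGM libraries held 89.7 and 67.9 CPM in knockout and 99.7 and 86.4 CPM in wild-type cells.

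The 77 genes together took between 6.09% and 8.43% of all counts. In RGM cells their share was 7.57% and 7.14% in the knockout libraries, against 7.77% and 8.43% in the wild-type libraries. The RGM knockout libraries both lay below their wild-type counterparts. In run1 the share was 6.09%, 6.88% and 7.49% in knockout replicates 3, 4 and 5, against 6.30% in V6.5 wild type and 6.90% in the Cas9-GFP line. There the knockout libraries spanned the whole wild-type range. Over all libraries the share averaged 7.03% ± 0.596 in knockout (SD, n = 5) and 7.35% ± 0.941 in wild type (SD, n = 4). Each of these SDs spans both lines, and the mix of lines differs between the genotypes. Within RGM the means were 7.35% in knockout and 8.10% in wild type, and within run1 they were 6.82% and 6.60%. The difference over all libraries was -0.319 percentage points, and 0.0419 without wild-type replicate 2. Leaving out that RGM library also changes the mix of lines in the wild-type mean. Exact binomial intervals (95%, counting error only) were narrow, for example 8.40% to 8.47% in wild-type replicate 2. By subunit, 60S genes held 3.71% ± 0.320 in knockout and 3.88% ± 0.548 in wild-type libraries, and 40S genes held 3.32% ± 0.305 in knockout and 3.48% ± 0.394 in wild-type libraries.

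**Figure D1:**
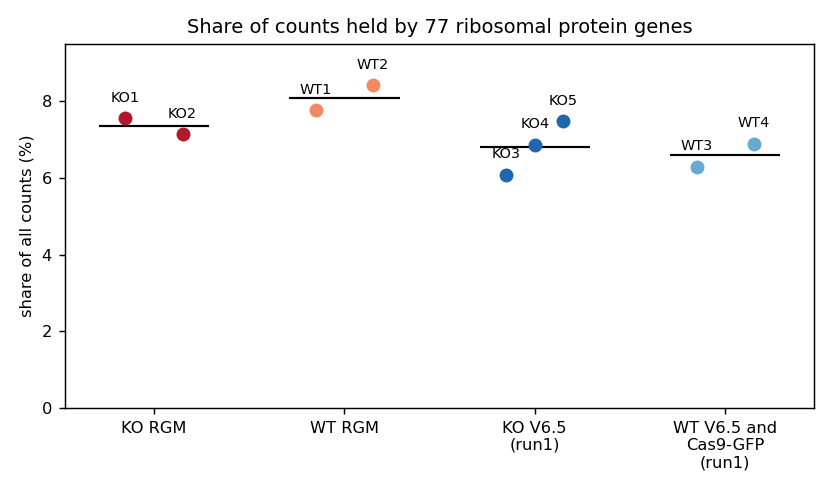
Share of all counts (%, vertical axis) taken by the 77 ribosomal protein genes in each library, by genotype and cell line; points are libraries and lines are group means. RGM knockout libraries sit at 7.14% and 7.57%, below RGM wild-type libraries at 7.77% and 8.43%, while the run1 knockout libraries span 6.09% to 7.49% around both run1 wild-type libraries.

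No ribosomal protein gene passed the threshold of an adjusted p of 0.05 for the knockout effect over all 9 libraries (edgeR quasi-likelihood test with run as a term, Benjamini-Hochberg over 12645 genes). Over all genes the test called 4, or 0.0316%, with Gzf1 not among them. At an unadjusted p under 0.05 it marked 7 ribosomal protein genes, all lower in knockout (Rpl28, Rpl32, Rpl36a, Rps7, Rps13, Rps16 and Rps27a), and DESeq2 also marked 7 and called 0. That count ran from 1 (without wild-type replicate 2 or 3) to 11 (without knockout replicate 4) when 1 library was left out. It was 2 without wild-type replicate 1, knockout replicate 1 or knockout replicate 2, and 3, with 1 of them higher, without knockout replicate 3. The background at that level is 2.32% of genes, 1.14% lower and 1.18% higher. With 1 library left out, that background ran from 1.56% (without wild-type replicate 3) to 5.48% (without knockout replicate 4). The log2 fold change was negative for 56 of the 77 genes (72.7%), against 47.4% of all genes tested. Its median was -0.08 over the family and 0.01 over all genes. It was -0.03 without wild-type replicate 2, -0.04 without knockout replicate 2 or 3, and -0.12 and -0.13 without knockout replicate 5 and wild-type replicate 3, and the median standard error of a member was 0.148. The fold changes of all 77 lay between -0.61 and 0.30 on the log2 scale.

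Rpl28 had the lowest log2 fold change over all libraries, -0.61 (SE 0.26, edgeR adjusted p = 0.9998). It encodes eL28 of the large subunit and was among the least abundant members. It stood at 7.69, 5.92, 6.64, 10.0 and 7.05 CPM in knockout replicates 1 to 5, against 14.8, 12.6, 8.38 and 11.5 CPM in wild-type replicates 1 to 4. Knockout replicate 4 lay above wild-type replicate 3, so the genotypes overlapped.

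Rps7, a small-subunit protein, followed at -0.55 (SE 0.24), but 1 library carried that value. It was at 51.9, 57.6, 109, 91.9 and 121 CPM in knockout replicates 1 to 5, against 60.1, 82.5, 251 and 92.5 CPM in wild-type replicates 1 to 4. Wild-type replicate 3 alone stood above every other library. Without it, the effect within run1 was 0.21, against -0.68 with it.

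Rpl24 (log2 fold change -0.45, SE 0.28) was the only gene of the 77 whose genotypes did not overlap over all 9 libraries. It encodes eL24, which forms a bridge between the subunits. It was at 4.81, 4.74, 3.04, 5.01 and 4.92 CPM in knockout replicates 1 to 5, against 5.66, 5.53, 6.05 and 6.97 CPM in wild-type replicates 1 to 4. That order held in 0.245% of all genes tested, and at these low counts the adjusted p was 0.9998 in edgeR. Rps27a, a ubiquitin fusion gene that carries eS31, was the fourth lowest at -0.44 (SE 0.18), with 27.9 ± 4.58 CPM in knockout (SD, n = 5) and 38.0 ± 6.45 CPM in wild type (SD, n = 4).

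At the other end stood Rpl5 (0.30, SE 0.18), Rpl3 (0.24, SE 0.20), Rps28 (0.21, SE 0.16) and Rpl12 (0.21, SE 0.13), none past the threshold in edgeR. Rpl5 binds 5S ribosomal RNA. It was at 63.4, 60.4, 48.0, 65.8 and 90.0 CPM in knockout replicates 1 to 5, against 48.8, 55.7, 47.0 and 60.1 CPM in wild-type replicates 1 to 4. Rpl3, which contributes to the peptidyl transferase centre, averaged 32.6 ± 8.91 CPM in knockout and 26.5 ± 8.56 CPM in wild-type libraries. For both genes the ranges of the genotypes overlapped.

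Within RGM cells more members were lower than higher in knockout. The counts here rest on 2 libraries a genotype, over genes that share libraries and are not independent. Relative to each gene's mean, the family's median log2 level was 0.04 and -0.0007 in the RGM knockout libraries. It was 0.13 and 0.33 in the RGM wild-type libraries. Within groups of genotype and run, library medians had a pooled SD of 0.13. The log2 fold change was negative for 62 of the 77 genes (80.5%), against 48.6% of all genes tested, with a median of -0.20 over the family and 0.01 over all genes. In 39 genes (50.6%) each knockout library was below each wild-type library, an order found in 16.6% of all genes. The opposite order held for 3 genes (Rpl5, Rpl41 and Rps29), against 18% of all genes. The count of 39 became 38 to 40 under the other scalings tried. No member passed the threshold in edgeR, which called 0% of all genes in this contrast, and DESeq2 called no member either. At an unadjusted p under 0.05 edgeR marked 6 members, all lower (Rpl6, Rpl27, Rpl28, Rpl35, Rpl35a and Rps16), against 0.822% of all genes, 0.498% lower and 0.324% higher. That count was 1 without knockout replicate 2, 2 without wild-type replicate 2, 3 without wild-type replicate 1 and 10 without knockout replicate 4. Without knockout replicate 1 it was 6, of which 1 was higher. Without knockout replicate 4 the background was 1.26% of all genes, 0.717% lower. The median depended on the libraries kept. It was -0.13 without wild-type replicate 2, -0.14 without knockout replicate 2, and -0.27 without wild-type replicate 1 or knockout replicate 1.

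The lowest fold changes within RGM belonged to Rpl29, Rpl28 and Rpl6. Rpl29 had 1.60 and 4.34 CPM in RGM knockout cells, against 5.39 and 9.08 CPM in RGM wild-type cells, a log2 fold change of -1.29 (SE 0.67) near the counting floor. Rpl28 had 7.69 and 5.92 CPM in RGM knockout cells, against 14.8 and 12.6 CPM in RGM wild-type cells (-1.01, SE 0.39). The large-subunit gene Rpl6 had 40.04 and 28.02 CPM in RGM knockout cells, against 51.0 and 69.1 CPM in RGM wild-type cells (-0.81, SE 0.29). In each of these genes the genotypes did not overlap, and the adjusted p in edgeR was 1.

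Fitted to the 4 RGM libraries alone, where the spread comes only from pairs of libraries, the test still called no member and 0.0779% of all genes. The nearest were Rpl35 (-0.60, SE 0.12) and Rps16 (-0.61, SE 0.12), both with an adjusted p of 0.0528 in edgeR. Rps16, a small-subunit protein, was at 210 and 195 CPM in RGM knockout cells, against 270 and 347 CPM in RGM wild-type cells. Rpl35, a large-subunit protein near the exit tunnel, was at 175 and 141 CPM in RGM knockout cells, against 244 and 234 CPM in RGM wild-type cells. In that fit 28 members had an unadjusted p under 0.05, all lower in knockout, against 3.38% of 11553 genes lower and 2.61% higher. These members share the same libraries and are not independent.

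In RGM cells 15 members had positive fold changes, none past the threshold. Rps6 led with 0.35 (SE 0.37), but its knockout libraries stood on either side of the wild type, at 18.6 and 44.2 CPM, against 24.5 and 24.1 CPM in RGM wild-type cells. Rpl5 followed at 0.25 (SE 0.28) and Rpl39, an X-linked gene for a very small protein of the exit tunnel, at 0.20 (SE 0.23). Rpl39 was at 1547 and 1836 CPM in RGM knockout cells, against 1285 and 1653 CPM in RGM wild-type cells, so its genotypes overlapped.

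In run1 the signs were nearly even with all libraries kept. The log2 fold change was negative for 40 of the 77 genes (51.9%), against 47.6% of all genes, and its median was -0.02, with 0.02 over all genes. No member passed the threshold in edgeR or DESeq2, and edgeR called 0.0158% of all genes. At an unadjusted p under 0.05 edgeR marked Rpl12 higher and Rpl36a lower, against 3.84% of all genes, 1.89% higher and 1.95% lower. All 3 knockout libraries were under the lower wild-type value in 3 genes (Rpl24, Rpl32 and Rpl36a, against 7.1% of all genes) and over the higher one in 2 (Rpl12 and Rps14, against 6.42%). Knockout replicate 3, the run1 library with the smallest share of ribosomal protein counts, moved the median to 0.08 when it was left out. The median was -0.07 without knockout replicate 5 and -0.06 without wild-type replicate 3. Negative members numbered 19, 54 and 47 in these fits, in that order. The medians over all genes were 0.01, 0.01 and 0.03.

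Rpl36a had the second lowest effect within run1 after Rps7, -0.65 (SE 0.24, edgeR adjusted p = 0.9995). This X-linked gene for a large-subunit protein was at 37.9, 50.1 and 49.2 CPM in run1 knockout cells, against 89.7 and 53.2 CPM in run1 wild-type cells. Without wild-type replicate 3, the higher of these, the effect was -0.22, and without wild-type replicate 4 it was -0.97. Rpl24 came next at -0.60 (SE 0.37). Rpl12, part of the base of the P stalk, was at 117, 120 and 131 CPM in run1 knockout cells, against 87.2 and 102 CPM in run1 wild-type cells (0.37, SE 0.17). Rps28 (0.37, SE 0.21) and Rpl3 (0.35, SE 0.28) followed. For Rps28 knockout replicate 5 stood apart at 1062 CPM, with 715 and 640 CPM in the other run1 knockout libraries and 547 and 700 CPM in run1 wild-type cells.

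The Cas9-GFP library was also left out, so that 3 V6.5 knockout libraries were set against 1 V6.5 wild-type library. In that fit the family's median was 0.07, and 33 of 77 members were negative, against 45.8% of all genes. The lone wild-type library is assumed there to vary like the other groups. In Rps19-ps3, a row chosen after its values were seen, knockout replicates 4 and 5 stood nearer the Cas9-GFP library than wild-type replicate 3. Whether the V6.5 labels are right was not tested, and the fit takes them as given. It marked 8 members at an unadjusted p under 0.05, against 3.97% of 12666 genes, and called 0 in edgeR. The lowest of these were Rps7 (-1.23) and Rpl36a (-0.97), and the highest were Rpl9 (0.69) and Rps12 (0.66).

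**Figure D2:**
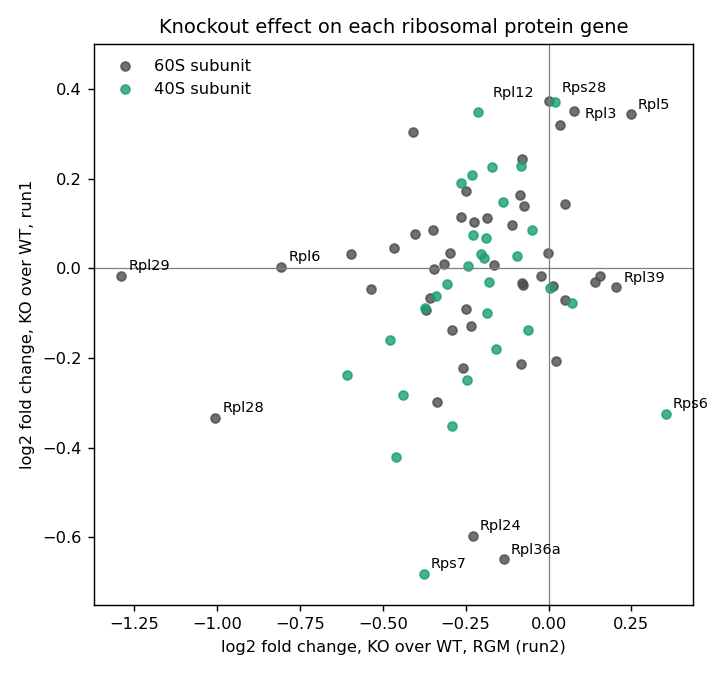
Log2 fold change of knockout over wild type for each of the 77 genes in RGM cells (horizontal axis) and in run1 (vertical axis); each point is 1 gene, coloured by subunit. Of the points, 62 lie left of zero, while the vertical values are spread on both sides of it, with 40 below.

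The difference between the RGM and run1 effects was tested directly and reached the threshold for no member in edgeR, which called 0% of all genes. No member had an unadjusted p under 0.05 either, against 1.44% of all genes (0.775% lower and 0.664% higher), and DESeq2 called no member and marked 1 at an unadjusted p under 0.05. The median difference, RGM minus run1, was -0.23 over the family and -0.01 over all genes. It was negative for 60 members (77.9%), against 51.3% of all genes. The median was -0.14 without wild-type replicate 2, with 52 members negative, and -0.16 without knockout replicate 2. The smallest p-values belonged to Rpl11 (-0.71, SE 0.33), Rpl35 (-0.63, SE 0.29) and Rpl6 (-0.81, SE 0.38). The effects had the same sign in both settings in 37 members (48.1%), against 48.2% of all genes. Of these, 31 were negative in both, against 22.2% of all genes, and 6 were positive in both, against 26%.

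The acidic P stalk, formed by Rplp0 with Rplp1 and Rplp2, recruits translation factors to the large subunit. Its genes had log2 fold changes in RGM cells of -0.19 (SE 0.17) for Rplp0, -0.11 (SE 0.18) for Rplp1 and -0.35 (SE 0.18) for Rplp2. Within run1 they were 0.11 (SE 0.15), 0.10 (SE 0.17) and -0.00 (SE 0.16) in that order. Rplp1 was among the most abundant members, at 3515 ± 406 CPM in knockout (SD, n = 5) and 3626 ± 773 CPM in wild type (SD, n = 4).

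Rpl5 and Rpl11 form the 5S ribonucleoprotein, which binds MDM2 when ribosome assembly is disturbed. Rpl11 was at 23.7 and 28.0 CPM in RGM knockout cells, against 33.2 and 35.5 CPM in RGM wild-type cells, without overlap (-0.41, SE 0.26). Its run1 levels were 99.0, 138 and 141 CPM in knockout cells, against 86.3 and 118 CPM in wild-type cells (0.30, SE 0.21). None of 10 genes of the p53 and nucleolar stress list passed the threshold in any knockout contrast in edgeR.

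Rpsa, the laminin receptor homologue of the small subunit, had 0.05 (SE 0.16) over all libraries. Rps19, the gene first linked to Diamond-Blackfan anaemia in people, had -0.11 (SE 0.13), with 1881 ± 440 CPM in knockout and 1954 ± 244 CPM in wild-type libraries. Of 20 members whose human counterparts are linked to that anaemia, 17 were negative in RGM cells and 8 in run1, with medians of -0.26 and 0.02. None of them passed the threshold in either. Rpl38, which in mice affects translation of Hox mRNAs, was at 0.02 (SE 0.19) in RGM cells and -0.21 (SE 0.18) in run1. Rpl41, which encodes the shortest of these proteins, was at 2671 ± 313 CPM in knockout and 2593 ± 196 CPM in wild-type libraries (0.05, SE 0.12).

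Among the 4 X-linked members, Rps4x was at 454 and 399 CPM in RGM knockout cells, against 530 and 658 CPM in RGM wild-type cells (-0.48, SE 0.26), without overlap. In run1 Rps4x was at 288, 511 and 353 CPM in knockout cells, against 495 and 362 CPM in wild-type cells, with overlap. Rpl10, which helps to join the subunits, had a log2 fold change of -0.17 (SE 0.21) over all libraries. The 13 members with the pyrimidine run at the start had a median of -0.25 in RGM cells and 0.03 in run1, and the 44 matched members without it had -0.18 and 0.01.

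Genes around the family did not pass the threshold for the knockout effect either, and none of those lists had a called gene in any knockout contrast in edgeR. Of 55 ribosome biogenesis genes, which process and assemble ribosomal RNA, 40 were positive in RGM cells (median 0.07) and 44 were negative in run1 (median -0.10). Their RGM median thus lay on the other side of zero from that of the ribosomal proteins. Of 22 further translation genes, many with TOP mRNAs, 18 were negative in RGM cells (median -0.07) and 8 in run1 (median 0.03). The elongation factor gene Eef1g was at -0.56 (SE 0.17) and Naca, a nascent chain binding protein, at -0.39 (SE 0.17) in RGM cells. Btf3, the partner of Naca, had the lowest fold change of that list over all libraries, -0.49 (SE 0.16). It stood at 55.4, 63.2, 22.8, 30.7 and 25.6 CPM in knockout replicates 1 to 5, against 83.3, 84.5, 44.1 and 29.2 CPM in wild-type replicates 1 to 4. Medians in RGM knockout over wild-type cells were 0.01 for 13 RNA polymerase I genes, 0.06 for 8 dedicated ribosomal protein chaperones and 0.12 for 19 genes of mTORC1 and Myc. In run1 those medians were -0.11, -0.17 and -0.08. Of 11 ribosomal protein paralogues and fusion genes outside the naming rule, Fau was at -0.65 (SE 0.25) in RGM cells, with 39.7 and 29.2 CPM in knockout and 53.4 and 55.3 CPM in wild type.

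Between the wild-type cells of RGM and run1, members differed in both directions. Of the 77 genes, 20 were higher and 8 lower in RGM wild-type cells at an adjusted p under 0.05 (edgeR), against 12.1% of all genes higher and 12.3% lower, or 24.4% in all. At an unadjusted p under 0.05, 30 were higher and 12 lower, against 18.9% and 19.7% of all genes. The median log2 difference was 0.31 over the family and -0.01 over all genes. Without wild-type replicate 1 the test called 13 members (16.9%) and 7.1% of all genes, and without wild-type replicate 2 it called 12 members (15.6%) and 6.81% of all genes. Fibroblast markers moved with this contrast: 11 of 23 tested were higher in RGM wild-type cells and none lower, and their part in these differences was not tested. Over all 9 libraries, with both genotypes pooled, every RGM library lay above every run1 library in 25 members (19.4% of all genes) and below every one in 12 (19.2%).

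The lowest was Rpl29 (chromosome 9, 106429454 to 106431568, GRCm38), a large-subunit protein. In wild-type cells it was at 5.39 and 9.08 CPM in RGM, against 295 and 326 CPM in run1, a 44.0-fold lower level in RGM (log2 difference -5.46, SE 0.48, edgeR adjusted p = 6.54e-05). The knockout libraries stood with their lines, at 1.60 and 4.34 CPM in RGM, against 332, 421 and 168 CPM in run1. No RGM library came near any run1 library.

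Rps2 (chromosome 17, 24718116 to 24721929), a small-subunit protein at the mRNA entry, showed the same order. It was at 81.1 and 74.6 CPM in RGM wild-type cells, against 1445 and 1636 CPM in run1 wild-type cells (log2 difference -4.30, SE 0.25, edgeR adjusted p = 1.19e-06). Its RGM knockout libraries were at 68.9 and 65.5 CPM, against 1435, 2148 and 2297 CPM in the run1 knockout libraries. Rps3a1 (-2.07, SE 0.22) was at 123 and 132 CPM in RGM wild-type cells, against 625 and 443 CPM in run1 wild-type cells. Rps6 (-1.77, SE 0.35), the S6 kinase substrate, was at 24.5 and 24.1 CPM in RGM wild-type cells, against 80.5 and 85.2 CPM in run1 wild-type cells. The other called members on this side were Rpl11 (-1.57), Rps7 (-1.27), Rpsa (-1.02) and Rplp0 (-0.61).

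Among the members higher in RGM wild-type cells, Rpl35 led with 1.58 (SE 0.22, edgeR adjusted p = 0.000747), at 244 and 234 CPM in RGM wild-type cells, against 85.6 and 74.3 CPM in run1 wild-type cells. Rps14 was at 3703 and 3873 CPM in RGM wild-type cells, against 1435 and 1564 CPM in run1 wild-type cells (1.34, SE 0.17). Rplp2 was at 2124 and 2160 CPM in RGM wild-type cells, against 1001 and 922 CPM in run1 wild-type cells (1.16, SE 0.18). The partners in the P stalk thus differed in direction, Rplp2 being higher and Rplp0 lower in RGM, with Rplp1 (0.46, SE 0.19) not past the threshold.

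Rpl22, an RNA-binding protein of the large subunit that is known to repress its paralogue Rpl22l1 in mouse, was higher in RGM wild-type cells too (1.18, SE 0.20). It was at 2924 and 3281 CPM in RGM wild-type cells, against 1161 and 1586 CPM in run1 wild-type cells. Rpl22l1 was also higher there, at 838 and 846 CPM in RGM wild-type cells, against 361 and 348 CPM in run1 wild-type cells (1.25, SE 0.33, edgeR adjusted p = 0.0185). Both genes were called in the same direction.

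The ribosome biogenesis list ran the other way, with 16 of 55 genes lower and 1 higher in RGM wild-type cells (edgeR). Nop56, a core protein of box C/D particles, was the strongest of the lower genes at -1.59, and Nop10, of the H/ACA particles, was the higher one at 1.28. The translation list had 6 of 22 genes higher and 3 lower, the mTORC1 and Myc list 2 of 19 higher and 8 lower, the RNA polymerase I list 0 of 13 higher and 3 lower, and the chaperone list 1 of 8 higher and 2 lower. These counts stand beside 12.1% of all genes higher and 12.3% lower.

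**Figure D3:**
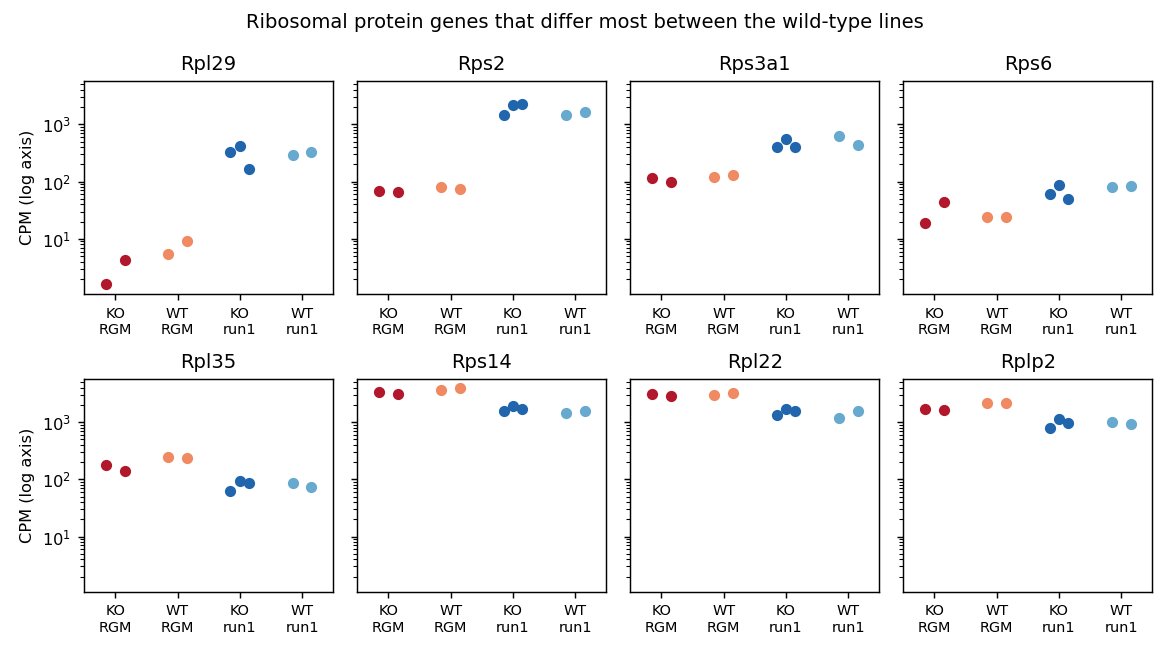
CPM (log axis) of the 4 members lowest and the 4 highest in RGM wild-type cells relative to run1 wild-type cells, among members past the threshold; each point is 1 library, in the order RGM knockout, RGM wild type, run1 knockout, run1 wild type. Rpl29 lies under 10 CPM in all RGM libraries and at 168 to 421 CPM in run1, and in no panel do the RGM libraries overlap the run1 libraries.

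**Figure D4:**
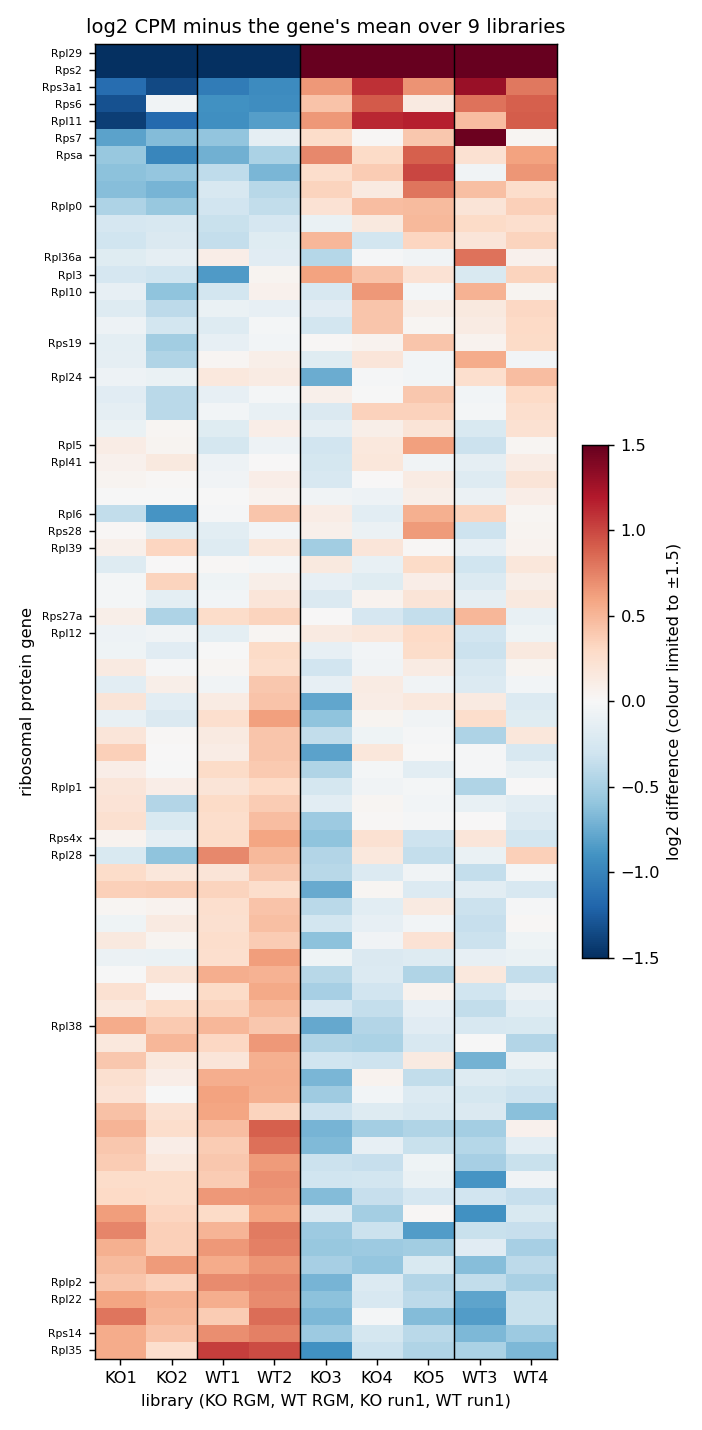
Log2 CPM of each of the 77 genes (vertical axis, sorted by the difference between the wild-type lines) in each of 9 libraries (horizontal axis), relative to the gene's mean, with labels for the genes chosen for naming; red is above and blue below that mean. The change of colour follows the border between RGM and run1 libraries more than the border between knockout and wild type.

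Many members end in sequence that annotated pseudogenes also carry, and the sources used here do not give whether the authors' counting kept reads with several matches. In the last 300 bases of each mRNA, as annotated in GENCODE M21, the share of 50-base words also found in an annotated pseudogene transcript was over 50% for 46 members and 0% for 16. Members over 50% had a median level of 133 CPM in RGM wild-type cells and 139 CPM in run1 wild-type cells. The other 31 members had medians of 1820 CPM in RGM and 1350 CPM in run1 wild-type cells. Per kilobase of mRNA the medians in RGM and run1 were 142 and 233 CPM over 50%. At or under 50% they were 2110 and 1710 CPM in that order. The assay counts 3′ ends, so these values per kilobase are not levels corrected for length. Spearman's correlation of this share with log2 CPM was -0.55 in RGM and -0.52 in run1 wild-type cells over the 77 genes, which share libraries and are not independent. Levels of the members over 50%, Rps2, Rpl29 and Rps6 among them, are therefore uncertain. The members lowest for the knockout effect over all libraries also belong there. Their shares were 92.43% for Rpl28, 99.6% for Rps7, 81.27% for Rpl24 and 86.85% for Rps27a.

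Both members with the largest line differences shared end words with many pseudogenes. The part of such copies in the line differences was not tested. Rps2 shared words with 51 pseudogenes and Rpl29 with 43, and 79.3% and 65.7% of their end words were shared in that order. Rps3a1 shared with 9, Rps6 with 11 and Rpl35 with 6, where the family's median was 6. Rpl21 and Rpl7a, named here for their 66 pseudogenes each after their values were seen, had line differences of -0.86 and 0.46. Neither was called in the main fit. Rpl21 was called with limma voom, without the low-count filter, and without wild-type replicate 3, knockout replicate 4 or knockout replicate 5. Rpl11 and Rplp0, also lower in RGM wild-type cells, shared none. Over the family the correlation of the shared percentage with the line difference was -0.09 by Spearman's rho and -0.16 by Pearson's r. With the number of pseudogenes it was -0.19 and -0.43 in that order, again over genes that share libraries. For the knockout effect in RGM cells the median was -0.23 in members over 50% and -0.14 in the others, and both sets had more negative than positive values, 39 of 46 and 23 of 31.

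**Figure D5:**
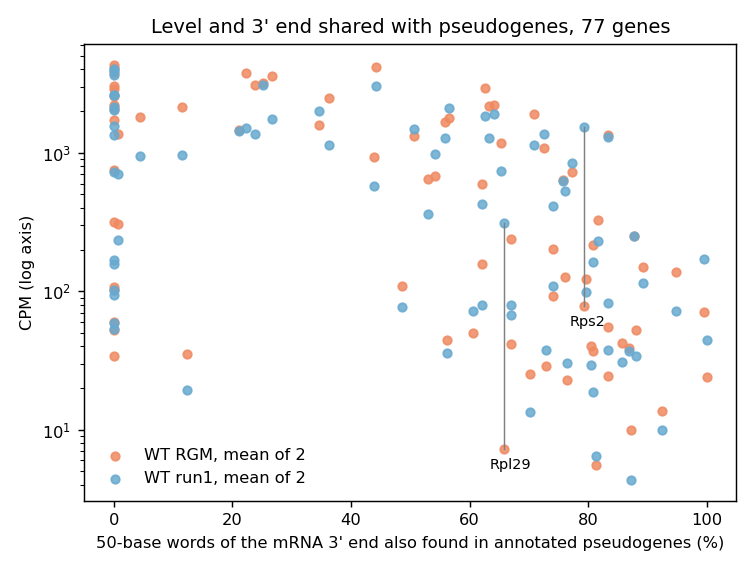
Mean CPM in wild-type cells (log axis) against the share of 50-base words of the mRNA end that annotated pseudogenes also hold (%), for 77 genes in RGM and run1. Members over 50% have median levels of 133 and 139 CPM, below those of the other members, and grey lines join the values of Rps2 and Rpl29 in both lines.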

How the data were processed

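Poly(A)+ RNA of 9 mouse embryonic stem cell libraries was measured by MARS-seq2.0, per the labels' protocols. The authors deposited 1 table of raw counts per gene symbol. The submitters' processing notes list STAR, DESeq2 and mm10, with no version or step for any. How strand and reads with several matches were handled, and which gene models were used, is not stated in these sources. Whether a count is a read or a molecule is not stated either, so intervals cover counting error only. Of 30324 rows, 92 were spike-in rows holding 1 count in all, left out of library sizes and tests. Groups came from the labels.

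Genes were filtered with filterByExpr (minimum count 10, genotype as group), leaving 12645. edgeR 4.0.16 in R 4.3.3 scaled counts by TMM and ran the robust quasi-likelihood F test, first with run and genotype as terms, then on the 4 groups of genotype by run, adjusting by Benjamini-Hochberg over all genes tested at 0.05. A standard error is the size of the log2 fold change over the square root of F. The 4-group fit shares 1 spread over all libraries. CPM are TMM-scaled over the genes tested, and a count of 3 was 0.412 to 1.18 CPM. Alternatives were other scalings, no filter, DESeq2 1.42.0, limma 3.58.1 voom, a replicate block, subsets of libraries and leaving out each library. Scripts were tested on simulated data. Between libraries of the same group, no pair agreed within sampling noise.

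Positions and 3′ ends came from GENCODE M21 (GRCm38, the mm10 assembly), and start sequences from RefSeq GRCm38.p6. The member rule, the gene lists, the tests and the rule for named genes (the extremes of each contrast, members with described roles, and from each list called genes or those of smallest p and highest count) were chosen with earlier results of these data known. Rpl32, Rps13, Rps16, Rpl27, Rpl35a, Rps29, Rpl9 and Rps12 fall outside that rule and were named because they belong to short lists, after their values were seen. The other gene lists are of the same origin and are described by counts and medians, with no list test.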

Additional observations from a re-analysis of the deposited data

Results flagged for a closer look

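In groups of 4 or 5 libraries, 4 single libraries stood apart by Dixon's criterion among the 72 groups examined, and chance alone marks about 1 group in 20. Rps28 was at 1062 CPM in knockout replicate 5, against 598 to 715 CPM in the other knockout libraries. Rps7 was at 250.7 CPM in wild-type replicate 3, against 60.1 to 92.5 CPM in the other wild-type libraries. Rpl24 was at 3.042 CPM in knockout replicate 3, with 4.74 to 5.01 CPM in the other knockout libraries. The merged row of Rplp2-ps1 and Wdr89 was at 386.6 CPM in knockout replicate 3, with 714 to 827 CPM in the other knockout libraries.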

How the results depend on the processing

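No member was called for the knockout effect, over all libraries, within RGM or within run1, or for the difference between them, under any alternative run. Between the wild-type lines, 28 members were called, 43 with limma voom, and from 12 to 35 when 1 library was left out. The share of all genes called was 24.4%, 38.5% with voom, and 6.81% to 32.9% with 1 library left out. At an unadjusted p under 0.05, voom marked 18 members for the knockout effect over all libraries and 25 within RGM, all lower. It marked 4.37% of all genes over all libraries, 2.33% lower, and 5.17% within RGM, 2.69% lower. The median line difference of 0.31 ranged from 0.164 to 0.452 when 1 library was left out. The cause of these moves was not tested. The knockout effect of Rps6 in RGM cells ranged from -0.388 (without knockout replicate 2) to 0.861 with 1 library left out, and that of Rps7 in run1 from -1.23 to 0.214 (without wild-type replicate 3). Other reversals concerned effects near zero over all libraries. Rplp1 was -0.0033 with RLE size factors, -0.0108 without the filter, -0.00326 in DESeq2, -0.0521 in voom, and from -0.11 to 0.0762 with 1 library left out. Voom gave -0.0338 for Rpsa, -0.119 for Rpl11 and -0.0138 for Rpl22. Leaving out 1 library gave ranges of -0.0938 to 0.0233 for Rplp0, -0.0743 to 0.153 for Rpsa and -0.165 to 0.127 for Rpl11. The ranges were -0.343 to 0.058 for Rps6, -0.0711 to 0.115 for Rpl22 and -0.00394 to 0.122 for Rpl41.

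Correlations of deviations between same-numbered libraries were -0.065 for replicates 1 and 2, 0.3 for replicate 3 and 0.34 for replicate 4. With 2 libraries in each RGM group, the values for replicates 1 and 2 are the same number by construction. The 2 run1 wild-type libraries mirror each other too, so the values for replicates 3 and 4 are not independent. Whether replicate numbers pair the libraries is therefore not settled. With the replicate number as a block, the family's median was -0.121 over all libraries, -0.206 in RGM cells and -0.0921 in run1, 0 members were called, and the effects of Rplp1, Rpsa and Rpl11 over all libraries turned to -0.0215, -0.0394 and -0.0369. The wild-type line contrast allows no block. The count test called 4 genes over all libraries without the block and 6 with it. Depth limits members such as Rpl24, Rpl28 and Rpl29 in RGM cells, at a few CPM.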

Other observations

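Tested rows that name only a ribosomal protein pseudogene had negative log2 fold changes in RGM cells, each smaller than its standard error. They were Rpl14-ps1 (-0.20), Rps15a-ps4 (-0.26), Rps15a-ps6 (-0.25) and Rps19-ps3 (-0.24). The row that merges Rplp2-ps1 with Wdr89 was positive (0.21, SE 0.33), and its counts cannot be assigned to the pseudogene. The merged row of Rplp2-ps1 and Wdr89 was at 827 and 729 CPM in RGM knockout cells, against 637 and 707 CPM in RGM wild-type cells, without overlap. Rpl14-ps1 was at 547 and 688 CPM in RGM knockout cells, against 695 and 722 CPM in RGM wild-type cells. Rps15a-ps6 was at 406 and 330 CPM in RGM knockout cells, against 443 and 435 CPM in RGM wild-type cells. In run1 Rps15a-ps6 was at 410, 589 and 604 CPM in knockout cells, against 261 CPM in V6.5 and 655 CPM in Cas9-GFP wild-type cells. Together the 6 pseudogene rows, the merged row included, held 0.194% ± 0.034 of counts in knockout libraries (SD, n = 5). They held 0.186% ± 0.0425 in wild-type libraries (SD, n = 4).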
